A study of Mus musculus with 8 samples.

Results

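The respiratory chain genes were taken by symbol: every gene whose name starts with Nduf, Uqcr, Sdha, Sdhb, Sdhc, Sdhd, Cox4 to Cox8, Atp5, mt-Nd, mt-Co, mt-Cytb or mt-Atp, without names that carry -ps, and with at least 50 UMIs (unique molecules) over all cells used. Of 32249 genes listed, 112 matched the names and 102 reached 50 UMIs, 94 encoded in the nucleus and 8 in the mitochondrial genome. Nuclear members numbered 38 for complex I, 4 for complex II, 8 for complex III, 15 for complex IV and 17 for complex V, with 12 assembly factors of complexes I and II (Ndufaf and Sdhaf genes). These counts include Ndufs6b of complex I and Cox6c2 of complex IV, which the GENCODE annotation lists as processed pseudogenes. Ndufa4 was placed with complex IV, where its protein is found. At the edge of the rule, Ndufs6b had 57 UMIs, Atp5g2 63 and Cox6c2 67, and the closest gene left out, Cox6b2, had 25.

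The respiratory chain of the inner mitochondrial membrane passes electrons from NADH and succinate to oxygen through complexes I to IV and pumps protons, and complex V makes ATP from the proton gradient. Complex II is encoded by the nucleus alone. The other complexes join subunits of both genomes, so their RNAs come from separate transcription systems, and macrophages are known to alter the use of this chain against glycolysis when they are activated.

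Cells were single bone marrow cells of C57Bl/6J mice, labelled male and aged 10 weeks, grown with the growth factor M-CSF for 3 days. The controls had no added protein, and the other group was given 4 µg/mL of CYR61, a matricellular protein encoded by Ccn1, for 24 h. Each group had 4 libraries made with the HIVE microwell platform, and the series title names monocyte-derived macrophages and liver fibrosis. The labels do not say whether libraries came from separate animals or cultures, so every p-value below measures the spread between libraries alone, which may be technical. In each group that spread also covers a difference in Xist and Y-linked RNA between libraries, given below.

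The tables held 1379637 to 16318946 UMIs, and 9196 cells entered the analysis, from 294 in control 3 to 3604 in CYR61 2. Median depth was 789 to 1595 UMIs per cell. The deposited tables carry 2 date stamps: the earlier covers replicates 1 and 2 of both groups, and the later covers replicates 3 and 4. Barcodes recurred between tables of a date, so each was kept only where it had most UMIs. In control 2, 85.2% of cells that passed the filters belonged by this rule to another table, against 2.38% to 40.1% in the others. Xist RNA was at 1152 to 1249 CPM (UMIs of the gene for a fixed number of UMIs in the library) in control 2, control 3, CYR61 1 and CYR61 2, against the label male, and at 1.16 or less in the other libraries, where Y-linked RNA was at 323 to 399 CPM. At the later date, both CYR61 libraries held Y-linked RNA and, at the earlier date, both held Xist, so within CYR61 the date and this split cannot be told apart. Macrophage markers such as Csf1r, Adgre1 and Cd68 were present in every library. Their list summed to 16122 to 28159 CPM. Neutrophil markers summed to 2803 CPM in CYR61 3 and 290 to 1314 CPM elsewhere. Osteoclast markers summed to 1755 to 2661 CPM, dendritic cell markers to 106 to 722, platelet and megakaryocyte markers to 21.4 to 72.8 and B cell markers to 3.48 to 39.2. Markers of T and NK cells, erythroid cells, mast cells and stromal cells were each at 10 CPM or less. Of the markers looked for, 3 of 9 erythroid, 6 of 9 B cell and 6 of 8 dendritic cell genes were among the genes listed. Those sums therefore cover a part of each list, and a low erythroid sum does not show that such cells were absent. CPM is the share of a library's UMIs, so a level is relative to all other RNA in the cells.

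The mitochondrial genome was counted unevenly, and the sequence of its genes bears on which of them could be followed. Of the 12 mitochondrial protein genes listed, mt-Co2 had 10 UMIs in all cells, mt-Atp6 12, mt-Co3 18 and mt-Nd4l 1, too few for the rule, and mt-Nd3 had 196. The other 7 had 5714 to 135828. Each of the scarce 5 has a near-identical nuclear pseudogene in one stretch of chromosome 1 (mm10): Gm28661 matches mt-Co2, Gm10925 matches mt-Atp6, Gm28437 matches mt-Co3, Gm28438 matches mt-Nd3 and Gm10222 matches mt-Nd4l. Over the aligned bases, identity was 100% for all of them except Gm28438, which differed from mt-Nd3 at 1 base of 345. The stretches below are shown because a read taken from either member of a pair could be told apart only by such a base. The first pair lies in mt-Co2 (chrM:7283-7342, plus strand) and Gm28661 (chr1:24615236-24615295, minus strand), without a difference. The second opens mt-Nd3 (chrM:9459-9518, plus strand) and Gm28438 (chr1:24613060-24613119, minus strand), with the differing base in capitals.
mt-Co2: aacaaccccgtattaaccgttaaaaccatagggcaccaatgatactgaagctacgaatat
Gm28661: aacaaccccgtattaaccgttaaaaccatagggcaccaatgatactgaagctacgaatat
mt-Nd3: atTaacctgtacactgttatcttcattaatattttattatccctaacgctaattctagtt
Gm28438: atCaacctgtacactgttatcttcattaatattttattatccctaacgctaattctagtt

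Cut into overlapping words of 30 bases, the 5 scarce genes had 98.1% to 100% of their words in another annotated transcript, and the 7 abundant genes 0% to 64.8%. Per kilobase of transcript, mt-Co1 had 87910 UMIs, mt-Cytb 81520, mt-Nd1 79520, mt-Nd2 52180, mt-Nd5 49060 and mt-Nd4 40150. The gene mt-Nd6, alone on the opposite strand, had 11010 per kilobase, and mt-Nd3 had 563. The remaining 4 had 3.37 to 23.0. One gene went another way: all words of the last 300 bases of mt-Co1 also occurred in pseudogenes, and it had the most UMIs per kilobase. How the authors' counting treated reads with several matches is not given in the sources used here, and its part in these levels was not tested. Levels of mt-Nd3 and of the 4 genes under the rule are therefore uncertain, and mt-Co1 may also be split. Pseudogenes also held 41.7% of the words of the last 300 bases of mt-Nd2. For mt-Nd4 they held 62.8% of all words but 0% of those of the last 300 bases. Counts of these 2 genes may be affected as well.

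**Figure D1:**
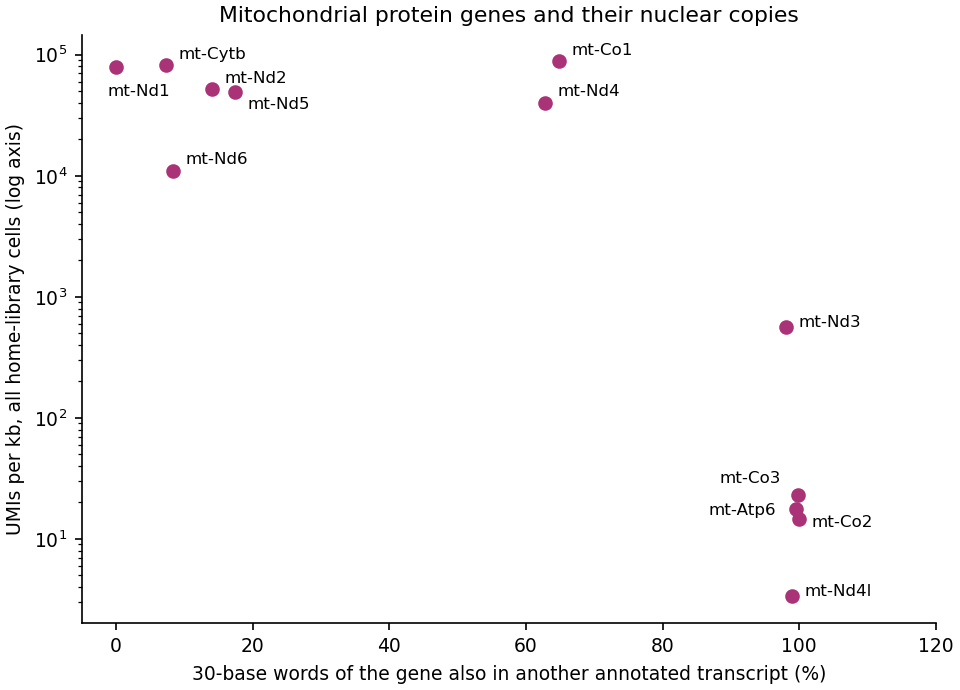
Each point is a mitochondrially encoded protein gene, with the share of its 30-base words found in another annotated transcript on the horizontal axis (%) and UMIs per kilobase over all cells used on a log vertical axis. The 5 genes at 98.1% or above lie at 563 UMIs per kilobase or below, and the other 7 at 11010 or above.

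The nuclear members were checked the same way, since many of them have processed pseudogenes. Of the 89 with an annotated transcript of that symbol, 10 had at least 50% of the words of their last 300 bases in another gene: Atp5g2, Atp5h, Atp5l, Atp5o, Cox5a, Cox7c, Ndufb6, Ndufs3, Ndufs5 and Uqcrc2. These 10 had a median of 1190 UMIs and the other 79 a median of 2725, and ranges overlapped, from 63 to 7153 against 100 to 14335. Counts of the 10 are uncertain to that extent. Cox4i1, whose transcript overlaps Emc8, shared 15.2% of all its words but 0% of those of its last 300 bases.

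Nuclear respiratory genes are known for promoters that bind NRF1, GABP of the ETS family and YY1. Windows of 300 bases, from 250 before to 50 after the start, were available from RefSeq (GRCm38.p6) for 78 nuclear members and 27025 genes in all. On either strand, the NRF1 core GCATGCG stood in 16.7% of members (13) and 4.01% of all genes. The strands of this core overlap in its longer palindromic form, which was counted once per gene. The ETS motif CCGGAAG stood in 28.2% of members (22) against 9.93%, and the YY1 core AAGATGG in 15.4% (12) against 7.28%. By contrast, TATAAA stood in 8.97% of members against 15.7% of all genes, and CCAAT in 42.3% against 41.1%. The comparison took every gene with a window, whatever its level, while members had at least 50 UMIs. Whether these shares differ from those of other expressed genes was not tested. A match is a run of letters and not a measured binding site. Stretches before the start of Ndufa6 (chr15:82354348-82354394, minus strand) and Cox6a1 (chr5:115349092-115349139, minus strand) show the NRF1 letters of either strand in capitals. They were taken as the 2 members with most UMIs that hold these letters outside the annotated transcript.
Ndufa6: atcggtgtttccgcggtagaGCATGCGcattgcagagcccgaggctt
Cox6a1: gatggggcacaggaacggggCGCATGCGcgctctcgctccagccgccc

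The 8 mitochondrial members held 510086 UMIs and the 94 nuclear ones 323172, and neither total separated CYR61 from control. The mitochondrial total is partial: mt-Co2, mt-Co3, mt-Atp6 and mt-Nd4l were under the rule, and mt-Nd3 was scarce. Ratios of the 2 genomes below hold for the counted genes and not for all of the mitochondrial mRNA. The mitochondrial members summed to 12573, 16179, 18092 and 20883 CPM in control 1 to 4 and to 14835, 17560, 11208 and 9813 CPM in CYR61 1 to 4. The 2 later CYR61 libraries were below every control, and the 2 earlier ones lay among the controls. The nuclear members summed to 10987, 10820, 10319 and 10685 CPM in the controls and to 9209, 8972, 12135 and 11080 CPM with CYR61. Here the controls were close together, while the earlier CYR61 libraries lay below and the later ones above all of them. In CPM of the UMIs outside the mitochondrial genome, the nuclear sums were 11539, 11587, 11270 and 11757 in control 1 to 4. With CYR61 they were 9922, 9738, 12613 and 11744, so CYR61 4 then lay just under control 4. The means that follow are in CPM of all UMIs. Means were 16930 ± 3489 CPM (SD, n = 4) in control and 13350 ± 3513 (SD, n = 4) with CYR61 for the mitochondrial sum, a log2 ratio of -0.34. For the nuclear sum they were 10700 ± 284 (SD, n = 4) and 10350 ± 1519 (SD, n = 4), a log2 ratio of -0.048. On the log2 scale the SD within groups was 0.35 for the mitochondrial and 0.15 for the nuclear sum, so the first difference was about as large as the spread and the second smaller. No test was made of sums.

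The ratio of mitochondrial to nuclear UMIs, in which the library total cancels, was 1.14, 1.495, 1.75 and 1.95 in the controls. With CYR61 it was 1.61 and 1.96 at the earlier date and 0.924 and 0.886 at the later. The means were 1.59 ± 0.350 (SD, n = 4) and 1.34 ± 0.527 (SD, n = 4). Within the earlier date both CYR61 libraries had the higher ratio, and within the later date both had the lower. With all cells that passed the filters, home table or not, the log2 ratios of the means were -0.23 for the mitochondrial sum, -0.0091 for the nuclear sum and -0.19 for the ratio. No member of 99 was called in those cells, nor was any of 11148 genes (edgeR, 0% called). The 2 mitochondrial ribosomal RNAs summed to 35242, 49950, 66265 and 70239 CPM in the controls and 57050, 61044, 26582 and 46685 with CYR61. Mitochondrial mRNA per ribosomal RNA was 0.273 to 0.357 in control and 0.260, 0.288, 0.422 and 0.210 in CYR61 1 to 4, so the later CYR61 libraries were the highest and the lowest of all.

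**Figure D2:**
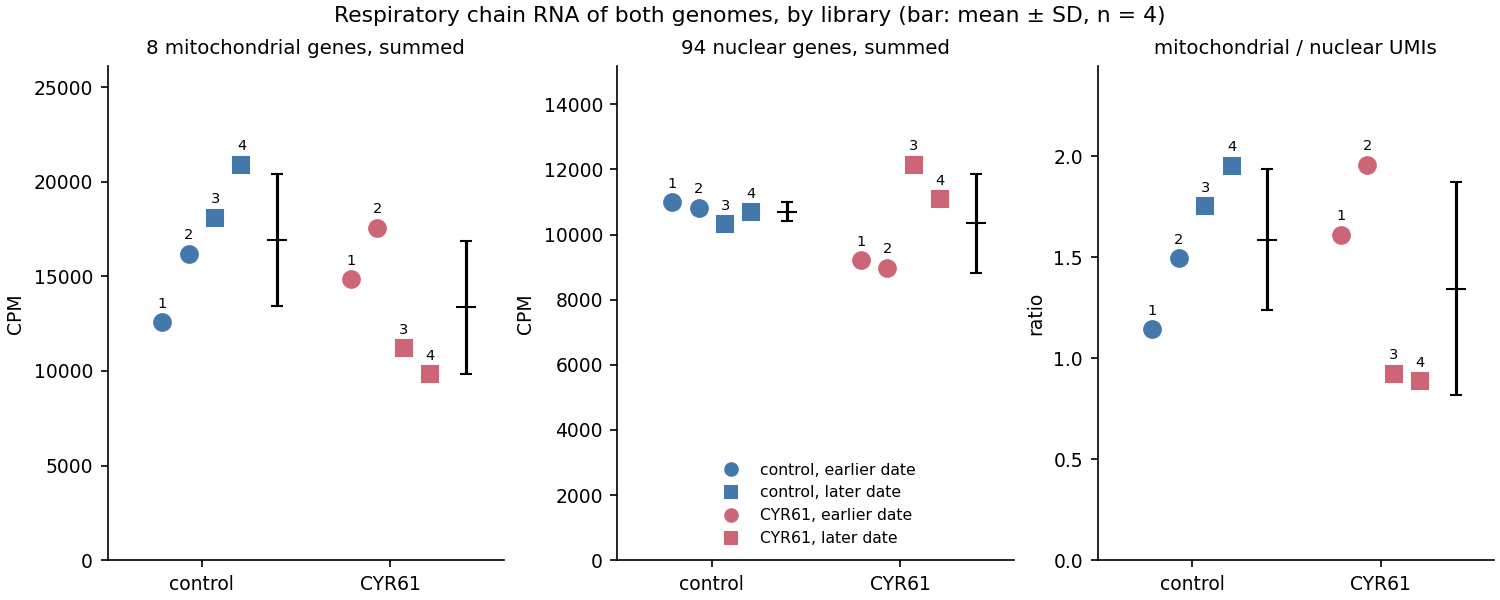
Points are libraries, numbered by replicate, with circles for the earlier and squares for the later date stamp; the panels show the summed mitochondrial members and summed nuclear members in CPM and the ratio of their UMIs, with bars for the mean ± SD of 4 libraries. The 2 later CYR61 libraries have the lowest mitochondrial sums (11208 and 9813 CPM) and the highest nuclear sums (12135 and 11080 CPM).

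Tested gene by gene with edgeR's quasi-likelihood test over all genes, none of the 97 members that passed the filter on low counts was higher or lower with CYR61 at an adjusted p under 0.05. Among all 10422 genes tested, 1.16% passed, nearly all of them higher (1.12%, against 0.0384% lower). DESeq2 also called none of the 97, beside 1.76% of all genes. At an unadjusted p under 0.05, edgeR had 2 members, both lower (Ndufc1 and mt-Nd2), where 6.2% of all genes passed in either direction and 2.74% lower. DESeq2 had 3 members at that level, all lower, where 3.42% of all genes were. The median log2 fold change was -0.034 over the members and -0.022 over all genes tested, with -0.024 for the 89 nuclear and -0.36 for the 8 mitochondrial members. The smallest adjusted p of a member was 0.297. The 95% interval of the fold change lay within 2-fold either way (1 on the log2 scale) for 80 of 97 members. It lay within 0.5 on the log2 scale for 29. These intervals are not adjusted for the number of genes tested. Smaller differences, and some larger ones, could therefore go uncalled: Ndufc1 had a log2 fold change of -0.81 and did not pass. The 5 members under the filter were Atp5g2, Cox6a2, Cox6c2, Cox7a1 and Ndufs6b.

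For scale, the same fit called 29 of 30 genes of a type I interferon list higher, with a median log2 fold change of 3.55. Other mitochondrial and metabolic lists had no gene past the threshold in either direction: none of 76 mitochondrial ribosomal proteins (median -0.057), 30 import genes (-0.094), 48 assembly factors and electron carriers outside the rule (-0.064), 20 TCA cycle genes (-0.16) or 19 genes of mitochondrial biogenesis and transcription (-0.016). Of 18 glycolysis genes, also none passed (-0.24). Below 0 were 17 of the TCA cycle genes and 14 of the glycolysis genes, beside 5494 of 10422 genes tested. At an unadjusted p under 0.05, 2 TCA cycle and 3 glycolysis genes were lower, where 2.74% of all genes were.

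**Figure D3:**
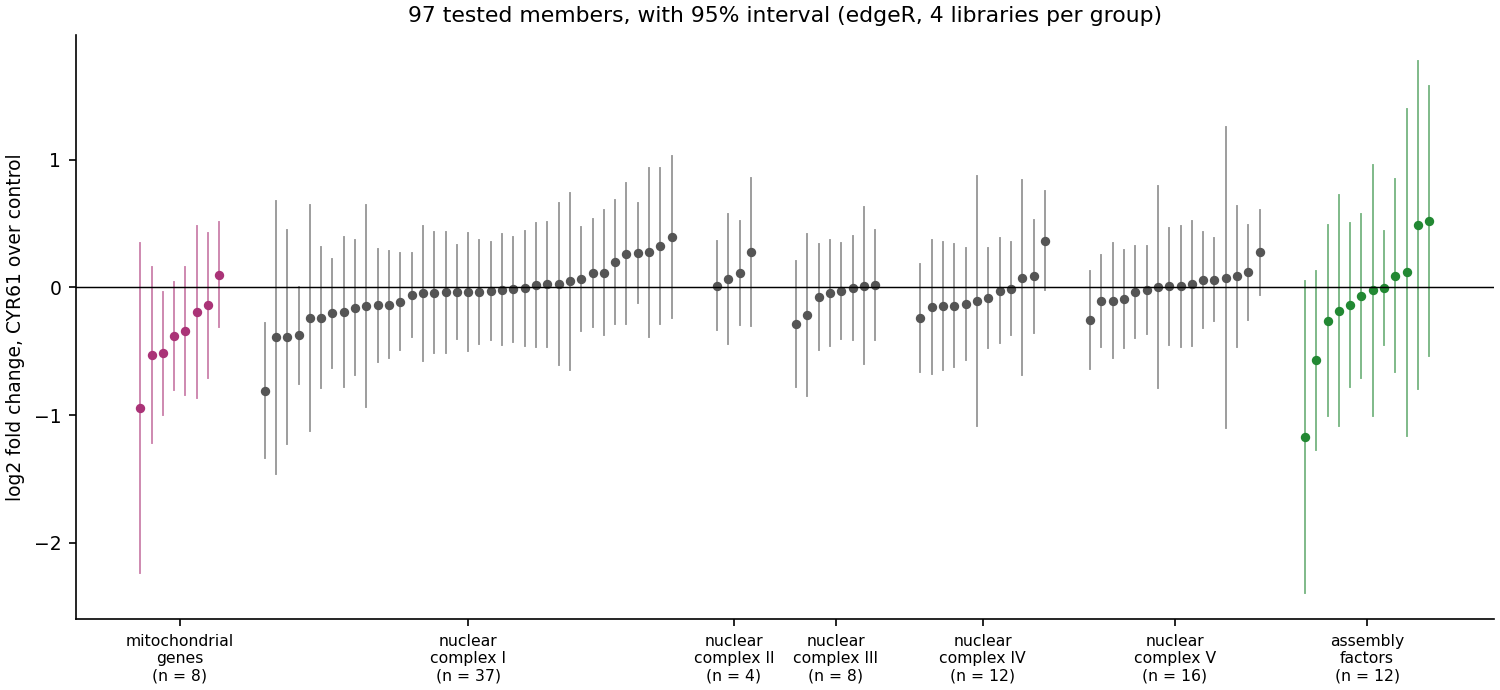
Points are log2 fold changes of CYR61 over control for the 97 tested members, sorted within each complex, and lines are 95% intervals from edgeR with 4 libraries per group. The interval of Ndufc1, the lowest point of nuclear complex I at -0.81, excludes 0 before adjustment, and no member passes after it.

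Complex I, which oxidises NADH, had 37 tested nuclear members, 13 above and 24 below 0, with a median of -0.035 and a range from -0.81 to 0.40. The lowest was Ndufc1, a small accessory subunit of the membrane arm (chr3:51404677-51408988, minus strand, mm10). It was at 56.5, 68.8, 83.1 and 61.8 CPM in control 1 to 4 and at 32.7, 28.4, 43.5 and 47.6 CPM in CYR61 1 to 4. Every CYR61 library lay below every control, at both dates. The log2 fold change was -0.81 with a standard error of 0.24 and an adjusted p of 0.297 by edgeR, 0.113 by DESeq2. Ndufa10, another accessory subunit, was also without overlap, at 133.9, 130.8, 137.7 and 157.5 CPM in the controls and 98.2, 100.8, 93.1 and 130.5 CPM with CYR61. CYR61 4 lay just under the lowest control. Its log2 fold change was -0.38 (edgeR, adjusted p = 0.819).

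Several accessory subunits of complex I were named for the smallest p among those above 0. For Ndufa12, a subunit of the peripheral arm, CYR61 libraries had 53.7, 49.9, 79.2 and 77.0 CPM and controls 74.8, 52.6, 43.9 and 25.9 CPM. Only the later libraries separated, with CYR61 higher. Ndufc2, another small subunit of the membrane arm, had 92.5, 93.4, 48.7 and 86.8 CPM in control and 76.5, 64.5, 146 and 113 CPM with CYR61. It was lower with CYR61 at the earlier date and higher at the later, unlike Ndufc1. Ndufb10 had 86.6 to 115.5 CPM in control and 108 to 154 CPM with CYR61, and the groups overlapped. None of these passed (edgeR, adjusted p of 0.959 to 0.988). Ndufa6, named for its high mean count in complex I, had 201 to 241 CPM in control and 193 to 298 with CYR61, a log2 fold change of 0.066 (standard error 0.19).

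The 4 subunits of complex II, which is succinate dehydrogenase and also part of the TCA cycle, all had fold changes above 0 on the log2 scale, from 0.014 for Sdhc to 0.28 for Sdhd, and none passed. Sdhb, the iron-sulfur subunit, had 281, 216, 201 and 293 CPM in control and 228, 244, 259 and 321 with CYR61. Sdhd, a membrane anchor, had 87.9, 101, 61.7 and 55.8 CPM in control and 79.6, 54.8, 111 and 122 CPM with CYR61. It was lower in both earlier CYR61 libraries and higher in both later ones. The other anchor, Sdhc, lay between 169 and 217 CPM in all libraries.

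Of the 8 subunits of complex III, which passes electrons from ubiquinol to cytochrome c, 2 were above 0 and 6 below, with a median of -0.036. Uqcrh, the hinge subunit, had 172, 147, 118 and 238 CPM in control and 104, 94.7, 219 and 159 CPM with CYR61. The 2 earlier CYR61 libraries were the lowest of the 8, and the later ones lay within the range of the controls. Uqcr11, a small subunit, had 53.8 to 70.0 CPM in control and 41.3 to 70.5 with CYR61, a log2 fold change of -0.28 (edgeR, adjusted p = 0.988).

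Complex IV, cytochrome c oxidase, had 12 tested nuclear members, 3 above and 9 below 0. Cox5a, a subunit on the matrix side, had 216, 177, 184 and 195 CPM in control and 212, 198, 277 and 293 CPM with CYR61. The later CYR61 libraries exceeded all controls, the earlier did not. Its log2 fold change was 0.37 with a standard error of 0.18 (edgeR, adjusted p = 0.844), and 84.5% of the words of its last 300 bases also occur in another annotated gene, so its counts are uncertain. Cox4i1, a regulatory subunit, had 462, 410, 343 and 591 CPM in control and 397, 427, 447 and 475 CPM with CYR61, a log2 fold change of -0.024.

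Complex IV and its partners also have tissue-specific isoforms, and here the forms known from most tissues dominated. Per kilobase of transcript over all cells, Cox4i1 had 18740 UMIs and its hypoxia-linked isoform Cox4i2 had 8.19. Cox6a1 had 6979 against 147 for the heart and muscle form Cox6a2, and Cox7a2 had 9612 against 219 for the muscle form Cox7a1. Ndufa4 had 13230 against 3.21 for Ndufa4l2, whose 3 UMIs all came from control 4. The muscle forms were near 0 in every library except for Cox7a1 in control 2, at 16.1 CPM, and in control 4, at 5.98 CPM. Whether free RNA in the wells gave these few molecules was not tested.

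Complex V, ATP synthase, had 16 tested members, 10 above and 6 below 0, with a median of 0.0078. Atp5j, coupling factor 6 of the stalk, had 154, 175, 170 and 168 CPM in control and 191, 192, 221 and 186 CPM with CYR61. Every CYR61 library was above every control. The log2 fold change was 0.28 with a standard error of 0.15 (edgeR, adjusted p = 0.903), and the annotated transcript overlaps Gabpa. Atp5j2, a subunit of the membrane part, had 229 to 325 CPM in control and 197 to 252 with CYR61 (log2 fold change -0.26, adjusted p = 0.959 by edgeR). Atp5b, the catalytic beta subunit, had 284 to 400 CPM in control and 333 to 365 with CYR61. In all, 3 of 97 members had groups without overlap, 1 higher (Atp5j) and 2 lower (Ndufc1 and Ndufa10). That is 3.09% of members beside 5.12% of all genes tested (2.87% higher and 2.25% lower).

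The 12 assembly factors, which build complexes I and II and are not part of them, had wider intervals, and none passed. Ndufaf1, a complex I assembly factor, had 6.98, 17.8, 23.7 and 3.99 CPM in control and 4.35 to 6.53 CPM with CYR61, on 229 UMIs in all. Controls 2 and 3 alone were high, and its log2 fold change of -1.17 had a standard error of 0.56 (edgeR, adjusted p = 0.825). Ndufaf8 had 18.9 to 44.2 CPM in control and 13.9 to 29.7 with CYR61, a log2 fold change of -0.57 (edgeR, adjusted p = 0.910).

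The mitochondrial members varied more between libraries than most nuclear ones. Among genes with at least 1000 UMIs, the highest library was 1.53 (mt-Nd6) to 3.01 (mt-Cytb) times the lowest for 7 mitochondrial members, with a median of 2.18. For 71 nuclear members the ratio ran from 1.14 for Ndufv2 to 3.58 for Ndufs6, with a median of 1.65. The gene mt-Cytb encodes cytochrome b of complex III (chrM:14145-15288, plus strand). It had 2005, 3665, 3811 and 3590 CPM in control and 2812, 3344, 1452 and 1266 CPM with CYR61. Control 1 stood apart from the other controls, and the later CYR61 libraries were the lowest of the 8.

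Among the complex I genes of the mitochondrial genome, for mt-Nd5 the levels were 1733, 2712, 2909 and 2774 CPM in control and 2642, 3437, 1348 and 1274 with CYR61. For mt-Nd2, which had the smallest p of the mitochondrial members, they were 1410, 2165, 2388 and 2232 CPM in control and 1640, 1730, 1157 and 1097 with CYR61 (log2 fold change -0.52, standard error 0.22, adjusted p = 0.751 by edgeR). In both, control 1 was the lowest control and the later CYR61 libraries were below it. The gene mt-Nd4 had 1400 to 2146 CPM in control and 1022 to 1874 with CYR61, and mt-Nd1 had 2070 to 3161 and 1673 to 2473.

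The complex IV gene mt-Co1 did not share this order. It had 3788, 2947, 3569 and 6942 CPM in control and 3729, 4521, 3903 and 3312 with CYR61, so control 4 alone was high. The opposite-strand gene mt-Nd6 had 158, 144, 196 and 130 CPM in control and 188, 176, 128 and 165 with CYR61, with a log2 fold change of 0.10 (standard error 0.19). It was the single mitochondrial member above 0. The scarce mt-Nd3 had 2.37 to 18.0 CPM in control and 3.21 to 9.57 with CYR61.

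**Figure D4:**
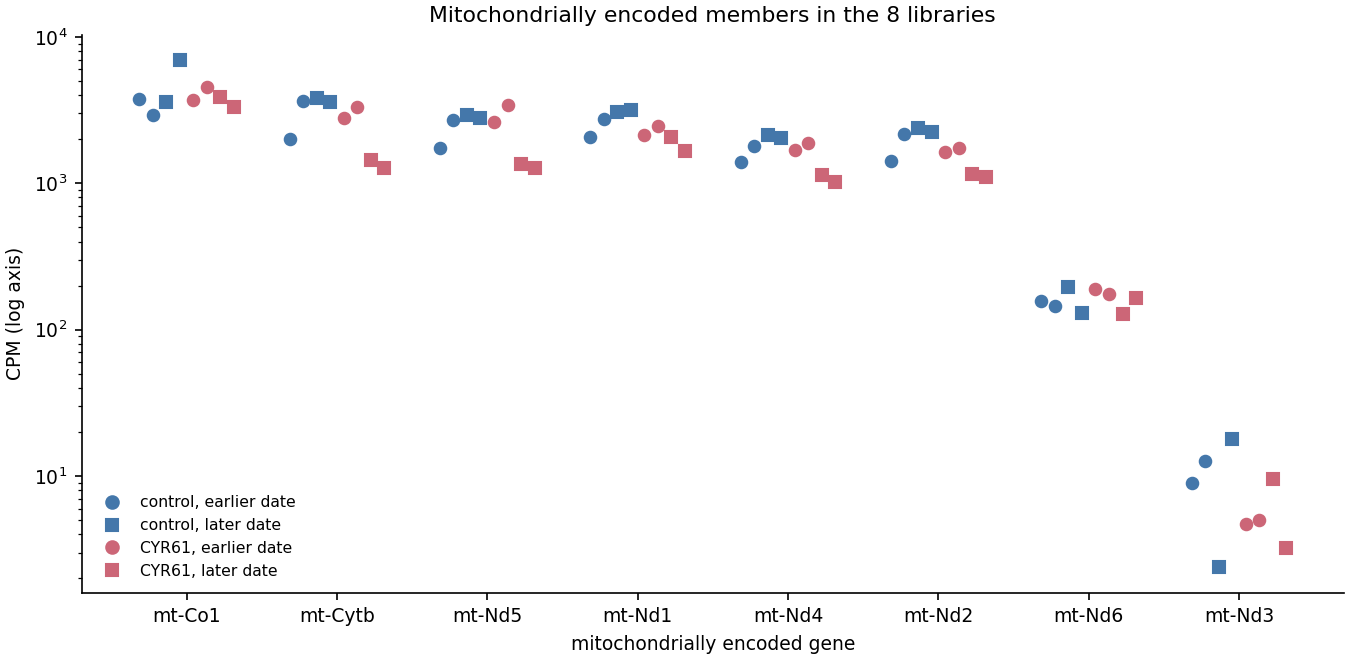
Points are the CPM of each mitochondrially encoded member in each library on a log axis, with circles for the earlier and squares for the later date stamp. For mt-Cytb, mt-Nd5, mt-Nd4, mt-Nd2 and mt-Nd1 the 2 later CYR61 libraries lie lowest. For mt-Nd1 the margin is small, with CYR61 3 at 2063 CPM and control 1 at 2070. By contrast, mt-Co1 is high in control 4 alone (6942 CPM). The gene mt-Nd6 overlaps between the groups of 4, with both earlier CYR61 libraries above both earlier controls.

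Split by date stamp, with 2 libraries against 2, more nuclear members lay below 0 and more mitochondrial members above 0 at the earlier date, and the reverse held at the later date, for the counts given below. At the earlier date no member of 102 passed (edgeR, adjusted p under 0.05; 0.693% of 12409 genes did), and 14 were lower and 2 higher at an unadjusted p under 0.05. Of all genes, 11% were lower and 7.85% higher at that level. The nuclear median was -0.19, with 77 of 94 below 0, and the mitochondrial median was 0.27, with 7 of 8 above 0, beside 0.0032 for all genes. Both CYR61 libraries lay below both controls for 58 of 94 nuclear members (61.7%), where 31.3% of all genes did. They lay above both controls for 1 of 8 mitochondrial members (12.5%), where 18% of all genes did, and below both for 1.

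At the later date 1 of 93 members passed, beside 0.92% of 9020 genes (0.0333% lower). This was mt-Cytb, which fell by 1.48 on the log2 scale with CYR61 (edgeR, adjusted p = 0.0134, 2 of 2 libraries below both controls). At an unadjusted p under 0.05, 5 mitochondrial members were lower and 3 nuclear ones higher (Ndufa12, Sdhd and Ndufc2), beside 3.2% of all genes lower and 4.1% higher. The mitochondrial median was -0.90, with 8 of 8 below 0, and the nuclear median was 0.12, with 57 of 85 above 0, beside -0.018 for all genes. Both CYR61 libraries lay above both controls for 26 of 85 nuclear members (30.6%), beside 20.8% of all genes, and below both for 5 of 8 mitochondrial members, beside 16.7%.

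Of 85 nuclear members tested at both dates, 50 (58.8%) were below 0 at the earlier and above 0 at the later, beside 24.6% of 9004 genes. Of the 8 mitochondrial members, 7 went from above to below 0, beside 28.8% of all genes. mt-Nd3 was below 0 at both. The difference between dates was tested gene by gene as an interaction, a comparison added after the data were seen. No member and none of 10422 genes passed (edgeR, 0% called), while 9 nuclear members had a more positive and 5 mitochondrial members a more negative effect at the later date at an unadjusted p under 0.05, beside 5.51% and 4.62% of all genes. For mt-Cytb and mt-Nd5 the later effect minus the earlier was -1.69 on the log2 scale (adjusted p = 0.3602 by edgeR for both), and for mt-Nd4 the difference was -1.22 (adjusted p = 0.392). For Sdhd it was 1.36 (adjusted p = 0.392). The call for mt-Cytb at the later date alone is thus not shown to differ from the earlier date after adjustment.

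**Figure D5:**
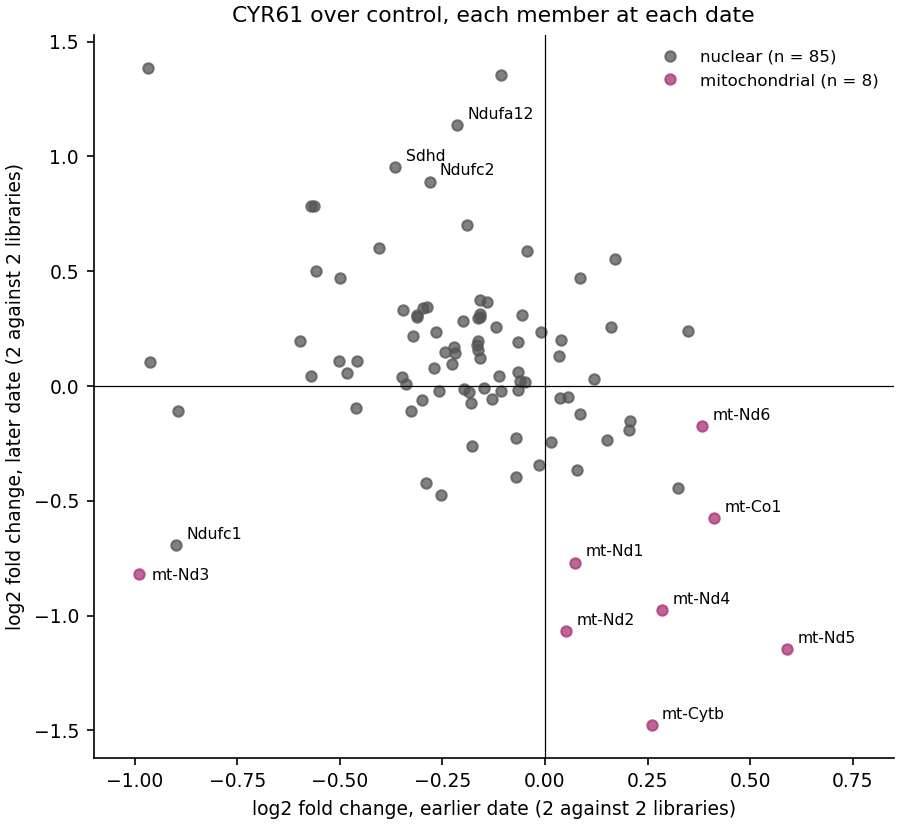
Each point is a member tested at both dates, with its log2 fold change of CYR61 over control at the earlier date on the horizontal and at the later date on the vertical axis (2 against 2 libraries each). Nuclear members lie mostly in the upper left (50 of 85) and mitochondrial members in the lower right (7 of 8).

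Other values changed with the same libraries. Nuclear 18S ribosomal RNA (Rn18s) was at 16269 and 21071 CPM in the later CYR61 libraries and at 24126 to 32794 in the other 6. Median depth was 789 and 804 UMIs per cell in the later and 1286 and 1595 in the earlier CYR61 libraries, with 921 to 1144 in the controls. The median share of UMIs from mt- genes was 4.55% and 9.81% in the later and 11.9% and 12.2% in the earlier CYR61 libraries. In control 1 to 4 it was 6.97%, 12.6%, 14.3% and 11.7%. Neutrophil markers summed to 2803 and 1022 CPM in the later and 353 and 290 CPM in the earlier CYR61 libraries, with 1169, 1314, 434 and 1198 CPM in control 1 to 4. Dendritic cell markers summed to 722 and 706 CPM in the later and 351 and 307 CPM in the earlier CYR61 libraries, with 106 to 129 in the controls. The interferon list summed to 7362 and 7479 CPM in the later and 4147 and 3655 CPM in the earlier CYR61 libraries, with 576 to 813 in the controls. By kind of library, the mean ratio of the genomes was 1.62 in control and 1.78 with CYR61 among libraries with Xist, and 1.55 and 0.905 among those with Y-linked RNA. The nuclear sum was 10570 and 9090 CPM in the first and 10840 and 11610 CPM in the second, so it went opposite ways by kind as it did by date. In control 4, 40.1% of barcodes with at least 300 genes were left out for a mitochondrial share over 20%, against 0.598% to 11.3% elsewhere. Without an upper limit on that share, the log2 ratio was -0.39 for the mitochondrial sum and -0.30 for the ratio. With a limit of 10% they were -0.21 and -0.078. Without the 249 cells that held at least 3 UMIs of neutrophil or platelet markers, they were -0.38 and -0.30. The part of these cell types, of depth and of RNA quality in the differences between dates was not tested.

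Cells with more mitochondrial member RNA did not have less nuclear member RNA in 7 of 8 libraries. Cells of each library were put in 4 bins of equal size by the share of their UMIs from the mitochondrial members. From the lowest to the highest bin, that share rose 2.04-fold to 3.64-fold by construction. Nuclear members, in CPM of the UMIs outside the mitochondrial genome, were 0.981 to 1.20 times as high in the highest as in the lowest bin, and above 1 in 7 of 8 libraries. In CYR61 3 they went from 11292 to 13344 CPM, and in control 1 from 11766 to 11548. Median depth differed between bins, for example 685 and 808.5 UMIs in CYR61 3, and its part was not tested. Cells are not replicates, and no test was made.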

How the data were processed

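The deposited tables hold raw UMI counts per gene and cell barcode, 5000 barcodes in each of 8 tables, and the genome build is mm10 per the submitters' processing notes. The aligner, counter and annotation, and how multiple matches were treated, were not given in the sources used here. Date stamps are those of the deposited tables. Barcodes with at least 300 genes and at most 20% of UMIs from mt- genes were kept (12848 of 40000), and each was assigned, among tables with 1 date stamp, to the table with its highest UMI count, leaving 9196 cells. Doublets were not removed. Counts were summed per library. Depth after this step was 842528 to 13933610 UMIs, and UMI counts of a gene limit the precision of its level.

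Genes were tested with edgeR 4.0.16 in R 4.3.3 (TMM, filterByExpr, quasi-likelihood F test, group as the sole term, Benjamini-Hochberg over all genes, threshold 0.05), with DESeq2 1.42.0 as an alternative. The code was tested on simulated counts. CPM values are shares of all UMIs without TMM factors. Sums over members were given without a test. Gene positions and transcripts are GENCODE vM21 on mm10, and promoters are from RefSeq. Python 3.11.15 with pandas 2.3.3 was used for the rest.

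Named genes were every mitochondrial member, the nuclear members with the 5 smallest p-values in each direction, members without overlap between groups, the subunit with the highest mean CPM and the one with the largest change in each complex, and tissue-specific isoforms. Cox8b was not analysed here. A few others were chosen after seeing values. The members, lists and rules were chosen with earlier results of these data known. Alternatives covered cell filters, date, normalization, tool, gene filter, replicate block, the Xist and Y split and leaving out each library.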

Additional observations from a re-analysis of the deposited data

Results flagged for a closer look

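As shares of all UMIs, the summed nuclear members went opposite ways at the 2 date stamps in every CYR61 library. So did the ratio of mitochondrial to nuclear UMIs, and neither difference was tested. The log2 ratio of CYR61 over control was -0.26 (earlier) and 0.14 (later) for the nuclear sum, and 0.43 and -1.035 for the ratio of the genomes. In CPM of the UMIs outside the mitochondrial genome, the nuclear sums of the groups overlapped at the later date. Controls 3 and 4 then had 11270 and 11757, and CYR61 3 and 4 had 12613 and 11744. Among named members, 3 went opposite ways at the 2 dates in every CYR61 library. The log2 ratio of mean CPM was -0.40 and 0.94 for Ndufc2, -0.18 and 0.22 for Ndufa6 and -0.49 and 0.98 for Sdhd at the earlier and later date. The interaction of protein and date did not pass for any of them (edgeR, adjusted p of 0.418, 0.744 and 0.392).

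Of 56 groups of 4 libraries looked at, 5 had a library whose gap to the nearest other, as a share of the group's range, exceeded Dixon's 95% critical value, and chance flags about 1 in 20 groups. Control 1 had 2005 CPM of mt-Cytb, where the other controls had 3590 to 3811, and 1733 CPM of mt-Nd5, where the others had 2712 to 2909. CYR61 3 had 221 CPM of Atp5j, where the others had 186 to 192. Control 3 had 86.6 CPM of Ndufb10, where the others had 112 to 115.5, and 48.7 CPM of Ndufc2, where the others had 86.8 to 93.4.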

How the results depend on the processing

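The totals differed between date stamps, which within CYR61 cannot be told apart from the Xist and Y-linked kinds. Log2 ratios of CYR61 over control at the earlier and later date were 0.17 and -0.89 for the mitochondrial sum, -0.26 and 0.14 for the nuclear sum and 0.43 and -1.035 for the ratio of the genomes. Leaving out each library in turn gave -0.50 to -0.22, -0.13 to 0.014 and -0.48 to -0.084. None of the members tested was called with any library left out (0 to 0), and the number tested varied with the library left out. The later date alone called 1 member, mt-Cytb (-1.48), and no other setting called any. Whether the replicate numbers pair the libraries is not known. Deviations of same-numbered libraries had correlations of -0.20, 0.32, -0.088 and 0.31 for replicates 1 to 4, and 3 of 8 libraries matched best with their own number. With the replicate block, 0 members and 112 genes were called, against 121 without.

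Signs of uncalled members changed in 28 of 536 values, over 13 of 25 named genes. At the earlier date the log2 fold change was 0.41 for mt-Co1, 0.26 for mt-Cytb, 0.073 for mt-Nd1, 0.052 for mt-Nd2, 0.29 for mt-Nd4, 0.59 for mt-Nd5, -0.21 for Ndufa12, -0.28 for Ndufc2, -0.067 for Ndufa6, -0.365 for Sdhd and 0.037 for Cox4i1. At the later date it was -0.17 for mt-Nd6 and 0.045 for Uqcrh. With at most 10% mitochondrial UMIs it was 0.092 for mt-Co1 and 0.057 for Cox4i1. Without a gene filter, which moved the median of all genes to 0.090, it was 0.0054 and 0.10. With all cells that passed the filters, mt-Nd6 was at -0.045, and 0 of 11148 genes were called (279 at an unadjusted p under 0.05). Without cells of other types, Ndufa6 was at -0.011. Cox4i1 was at 0.0033 with the replicate block and 0.00028 with the kind of library (Xist or Y-linked RNA) in the model. Leaving out libraries gave -0.28 to 0.28 for mt-Co1, -0.49 to 0.052 for mt-Nd5, -0.0066 to 0.17 for Ndufa6, -0.42 to 0.070 for Uqcrh and -0.11 to 0.21 for Cox4i1. The cause was not tested.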
